A study of Arabidopsis thaliana with 4 samples.

Results

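Bleomycin, a drug that breaks DNA strands, was given to Arabidopsis thaliana plants carrying a T-DNA insertion in KU80 (AT1G48050), and the transcripts of these ku80 plants were measured on 1 ATH1 array with the drug and 1 without. These were 2 of the 4 arrays of the series, chosen by their labels for genotype and treatment. The other 2 came from the wild type accession Ws-2, which is also the background of ku80, with and without the drug. Bleomycin is recorded at 1 mg per litre for 3 days on the treated groups, and no treatment is recorded on the untreated ones. All plants were taken whole at growth stage 1.06, from growth at 23 °C with 16 hours of light on MS medium. The RNA on an array was a pool of 20 plants and no group was replicated, so no difference below has a test, and the labels describe 1 insertion line only.

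With its partner KU70, the KU80 protein holds broken DNA ends and starts their joining without a matching template. Plants lacking Ku are known to be sensitive to agents that break DNA. Plant cells answer DNA breaks by signalling through the kinase ATM to the transcription factor SOG1, with repair genes turned on, division halted before mitosis and, in some cells, programmed death. In whole-plant RNA, fewer cells of a type and less RNA per cell cannot be told apart.

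Values are array intensities, scaled to a common level over the brighter probe sets and raised to a floor of 28 where they lay below it. Of 22746 probe sets without controls, 14500 lay above the floor on at least 1 ku80 array, and 12750 on both. A difference is log2 of the bleomycin value over the untreated value, and where 1 of the values was at the floor the fold is given as "at least". With the drug, 382 probe sets (2.63%) were higher by 2-fold or more and 861 (5.94%) lower by as much, while 13257 (91.4%) lay within 2-fold. Past 3-fold were 118 (0.814%) higher and 234 (1.61%) lower. The middle of the distribution was at -0.01. Among 7757 named genes, each taken at its brightest probe set, 187 (2.41%) were higher and 418 (5.39%) lower by that margin, and the lists below are read against these shares.

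The predominance of lower values depended on the scale. The 16 bacterial spike-in controls, transcripts added to the samples in set amounts, were between -0.75 and 0.78 with a median of -0.42, and 15 of the 16 were lower with the drug. Scaled on these spike-ins instead, 1179 probe sets were higher and 353 lower by 2-fold or more. Higher values then made up 77.0% of those past 2-fold, against 30.7%. The median of all measured probe sets was at 0.36 on that scale, and the wild type median over the same named genes was at -0.73. All differences below are therefore relative to the bulk of probe sets on each array. Spike-in values are given beside many, not all, of the list counts and medians that depend on them. Counts of list members above or below 0 are on the scale used here only. The spike-in scale raises ku80 differences and lowers wild type ones, so any order of the genotypes depends on it. The 17 plant control probe sets had a median of -0.01, and the 5 reference genes lay between -0.18 (GAPC2) and 0.26 with a median of 0.03.

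**Figure D1:**
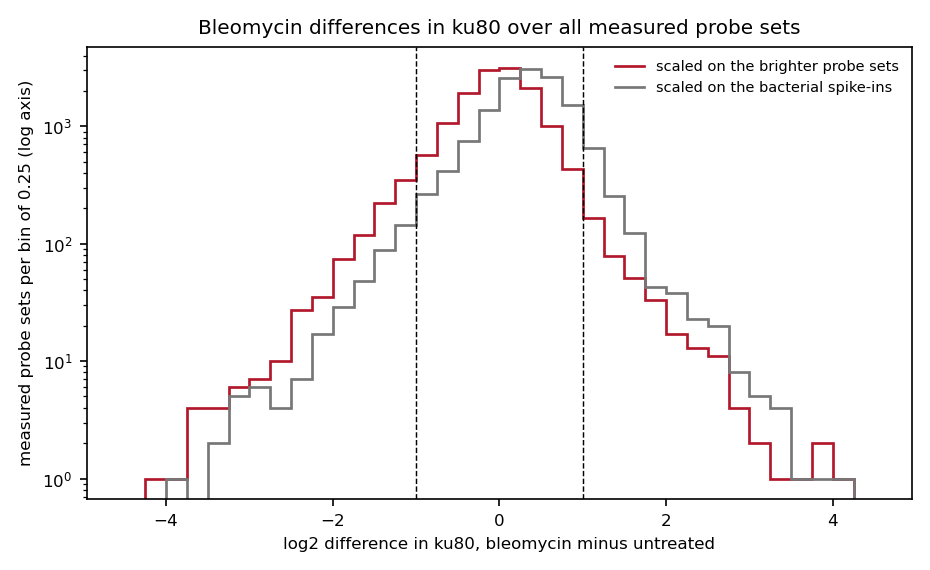
Number of measured probe sets (log axis) in bins of 0.25 of the log2 difference between bleomycin and untreated ku80, under the scaling used here and under scaling on the bacterial spike-ins; dashed lines mark 2-fold. The first curve is centred at -0.01 with more probe sets past the lower line (861) than the upper (382), and the spike-in scale moves the centre to 0.36 and turns that order (353 and 1179).

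A rough measure of error came from 55 genes with 2 or more probe sets above the floor. Their probe sets differed with an SD of 0.39 on the log2 scale, or 0.28 for 1 probe set. This covers the probes of 1 array pair, not the spread between pools of plants. In 3 of these genes 1 probe set was past 2-fold; the second had the same sign in all 3 and was past 2-fold in 0. The share of probe sets past 2-fold upward was 1.17% at mean intensities under 50, 4.38% between 200 and 400, and 2.10% from 400. The share past 2-fold downward was 2.60% under 50 and 7.75% from 400. The untreated ku80 array had a scanner background of 95.8, against 105 on the treated one, and its 3' to 5' signal ratios were 1.09 and 1.19 for GAPDH without and with the drug. The part of background, RNA quality and spike-in level in the results was not tested. Of the markers for the labelled whole plant, the leaf gene RCA was at 2666 and 1696 and the root gene PYK10 at 1935 and 2195. PYK10 was the only 1 of 3 root markers named on the array that lay above the floor on a ku80 array. No flower or seed marker was named on the array, and no probe set was paired with KU80, so the insertion could not be checked by its transcript.

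In ku80 the drug went with lower levels of genes that answer wounding, touch and microbial patterns within minutes, a mix of transcription factors, calcium sensors and ubiquitin ligases. Of 28 measured members of this list 22 were at least 2-fold lower with bleomycin and 0 were higher by that much, with a median of -1.52. WRKY53, a transcription factor of senescence and defence, was at 234 in untreated and 34.3 in treated ku80, and at 165 and 150 in wild type. ORA47, a wound-induced factor that acts on jasmonate synthesis genes, was at 127 and 36.1 in ku80 and at 550 and 410 in wild type. The zinc finger factor STZ was at 1563 and 740 in ku80, 2.11-fold lower, and at 1338 and 2049 in wild type. On the treated ku80 array these 3 genes were at their lowest level of the 4 arrays.

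The list also holds calcium sensors and ubiquitin ligases. CML38, a calmodulin-like protein, was at 677 and 278 in ku80 and at 525 and 617 in wild type. CML37 was at 91.9 without the drug and at the floor with it, at least 3.28-fold lower, and at 106 and 145 in wild type. The U-box ubiquitin ligases PUB22 and PUB23, which dampen pattern-triggered immunity, were at 248 and 92.2 and at 475 and 86.5 in ku80. In wild type PUB22 was at 232 and 322 and PUB23 at 494 and 345. Beyond this list, PUB19 was at 116 without the drug and at the floor with it. Of 7 measured U-box genes 4, with PUB22 and PUB23 among them, were at least 2-fold lower (3 on the spike-in scale). Of 7 calmodulin-like genes 3, with CML37 and CML38 among them, were at least 2-fold lower and 0 higher, with a median of -0.62. On the spike-in scale 1 was lower and 1 higher, with a median of -0.21. CML43, CML41 and CML23 were not among the 3 lower genes, at 0.85, 0.37 and 0.05.

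The wild type members of the early response list had a median of 0.26, with 4 of 28 at least 2-fold higher and 0 lower. The ku80 difference was below the wild type difference in 28 of 28 members, a comparison that was not tested. On the spike-in scale the ku80 median was -1.12 with 15 members at least 2-fold lower, the wild type median was -0.54, and ku80 was below wild type in 20 of 28. Without bleomycin 3 members were at least 2-fold lower in ku80 than in wild type and 0 higher, whereas with bleomycin 23 were lower. These counts were 11 and 19 on the spike-in scale. Of the 28 genes, 12 had been named in earlier results of these data. The other 16 had a median of -1.20, with 10 at least 2-fold lower. Most lists were extended or put together after the values were seen, so these 16 are not independent of the same arrays.

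**Figure D2:**
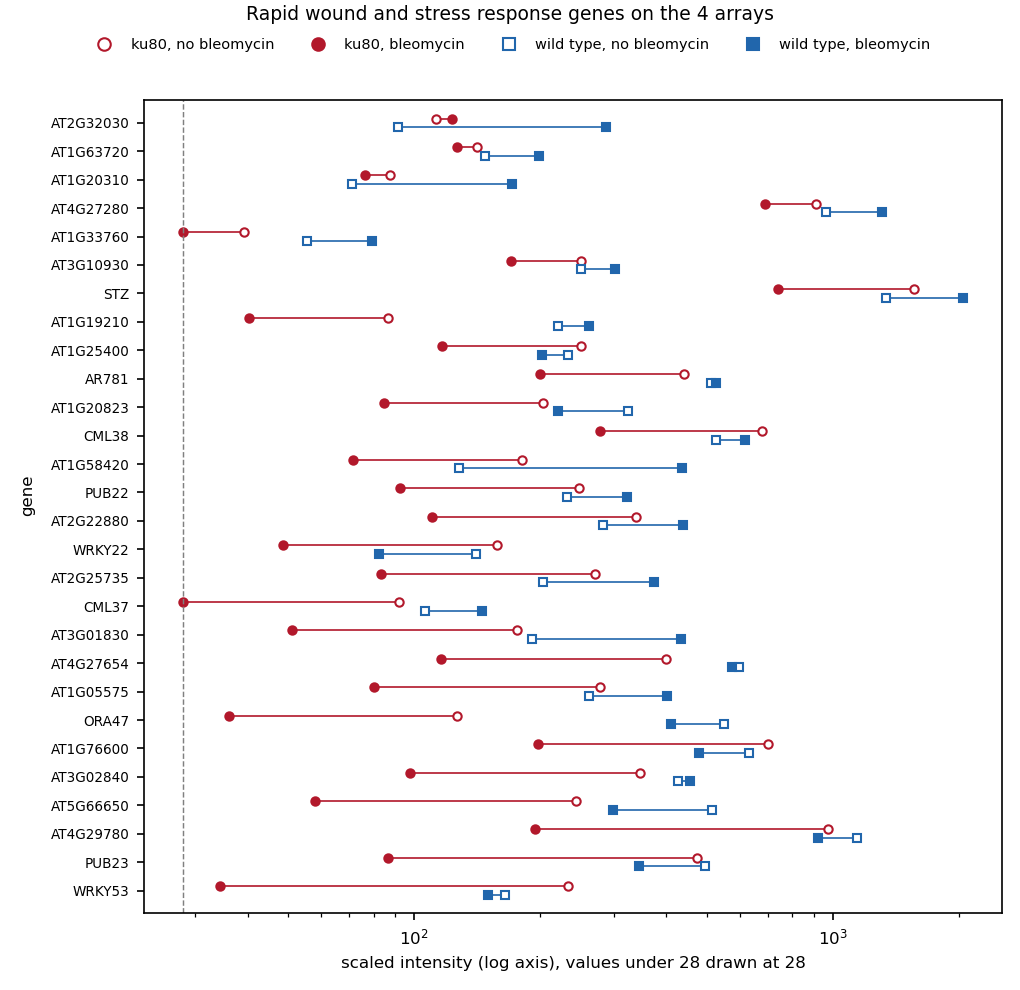
Scaled intensity (log axis) of the 28 measured early wound and stress response genes on the 4 arrays, ku80 as circles and wild type as squares, open without and filled with bleomycin. Most filled circles stand alone at the left of the other 3 symbols, for example STZ at 740 against 1338 to 2049.

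Several defence and stress families showed another arrangement, in which the untreated ku80 array held the highest value for many members. Chitinases, which cut fungal cell walls, were at least 2-fold lower with the drug in 5 of 8 measured genes and higher in 1. The median was -1.53. On the spike-in scale 4 were lower and 2 higher, with a median of -1.12. AT2G43620 was at 811 and 102 in ku80 and at 31.4 and 244 in wild type. AT4G01700 was at 168 and 51.0 in ku80 and at 41.0 and 86.6 in wild type. AT2G43590 was at 269 in untreated ku80 and at the floor with bleomycin, and at 57.1 and 82.8 in wild type. The exception was AT3G47540, at 226 and 817 in ku80 and at 85.3 and 484 in wild type, the highest with the drug in both. Without the drug 6 of the 8 exceeded wild type by 2-fold or more in ku80 (5 on the spike-in scale); that comparison and the bleomycin difference share the untreated ku80 array.

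Plant defensins are small secreted antimicrobial proteins. Of 8 measured defensin and thionin genes 4 were at least 2-fold lower (3 on the spike-in scale). PDF1.4 was at 228 and 77.5 in ku80 and at 34.7 and 60.9 in wild type. LCR69 was at 1674 and 795 in ku80 and at 1281 and 946 in wild type. On the spike-in scale LCR69 was lower in untreated ku80 than in untreated wild type. PDF1.2 was at 756 and 64.6 in ku80, against 72.7 and 142 in wild type, so only its untreated ku80 value stood apart. PDF1.2b reached 1692 in untreated ku80, but its probe set can bind related transcripts.

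Class III peroxidases, secreted enzymes that act on the cell wall and on lignin, were at least 2-fold lower in 10 of 36 measured genes and higher in 1. The list's median was -0.41 and close to 0 (-0.05) on the spike-in scale. AT5G64120 was at 984 and 287 in ku80 and at 183 and 232 in wild type. Its close neighbour AT5G64100 was at 539 and 173 in ku80 and at 153 and 498 in wild type. Prx37 was at 818 and 269 in ku80 and at 211 and 322 in wild type, and the adjacent AT4G08780 at 248 and 97.5 and at 61.8 and 181. In all of these but AT5G64120 the treated ku80 value lay between the wild type values, and 9 of the 36 exceeded untreated wild type by 2-fold or more in untreated ku80. With spike-in scaling 4 did so and 10 were lower by as much.

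Berberine bridge enzyme-like oxidases, several of which take part in defence, were at least 2-fold lower in 2 of 10 genes. In ku80 1 gene was at least 2-fold higher, and the median was -0.64. On the spike-in scale 0 of 10 were lower and 1 higher, with a median of -0.23. AT1G26390 was at 442 and 209 in ku80, and at the floor and at 71.5 in wild type. AT1G26380 was at 413 and 266 in ku80, and at the floor and at 126 in wild type. AT1G30700 was at 573 and 312 in ku80 and at 29.6 and 87.1 in wild type. These 3, like the chitinase gene AT3G47540 and unlike AT2G43620, were higher in treated ku80 than on either wild type array. The list's wild type median was 0.98, with 5 of 10 at least 2-fold higher (0.38 and 3 on the spike-in scale). AT5G44390, the 1 member at least 2-fold higher in ku80, was at the floor and at 84.2 there. In wild type it was at the floor and at 95.8.

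Genes that answer low oxygen had a like order of arrays. All 11 measured members were below 0 in ku80, with a median of -0.58 and 3 at least 2-fold lower, while the wild type median was 1.68 with 6 of 11 at least 2-fold higher. With spike-in scaling the medians were -0.18 and 1.27. AT1G19530 was at 490 and 148 in ku80 and at 71.1 and 362 in wild type. AT1G33055 was at 507 and 338 in ku80 and at 57.4 and 254 in wild type. AT4G33560 was at 177 and 126 in ku80, and at the floor and at 162 in wild type. PDC2, a pyruvate decarboxylase of fermentation, was at 419 and 373 in ku80 and at 302 and 460 in wild type. Of the 11, 8 exceeded untreated wild type by 2-fold or more in untreated ku80 (6 on the spike-in scale), and with the drug 0 did on either scale.

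Genes of nitrogen and carbon recycling, used when stored reserves or proteins are broken down, had the lowest list median. It was -2.15 over 6 members, with 4 at least 2-fold lower. On the spike-in scale 4 were lower and 1 higher, with a median of -1.75. The glutamine amidotransferase-like gene GAT1_2.1 was at 298 in untreated ku80 and at the floor with the drug, against 63.1 and 63.3 in wild type. ICL, isocitrate lyase of the glyoxylate cycle, was at 132 in untreated ku80 and at the floor on the other 3 arrays. ASPGB1, an asparaginase, was at 544 and 118 in ku80 and at 57.3 and 67.6 in wild type. MGL, methionine gamma-lyase, was at 342 and 79.8 in ku80 and at 188 and 76.2 in wild type. AT4G33150 and AT5G38710, of lysine and proline breakdown, were higher with the drug instead, at 0.74 and 0.51. The list was put together after leading genes of these arrays had been seen, so its median is a description of those genes.

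**Figure D3:**
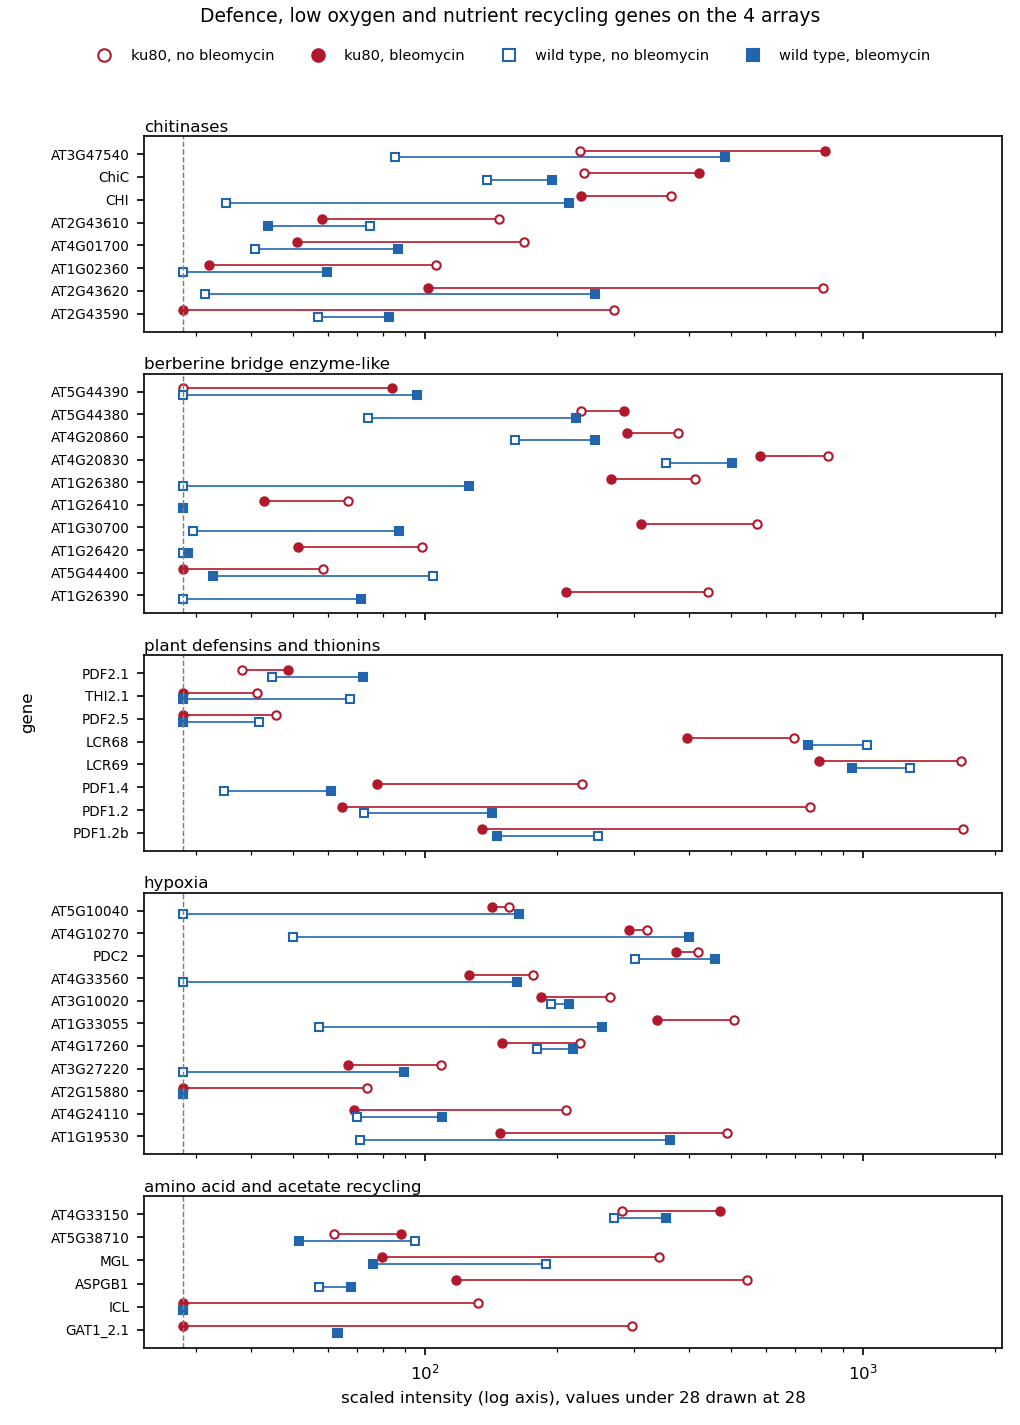
Scaled intensity (log axis) of chitinase, berberine bridge enzyme-like, defensin, low oxygen and recycling genes on the 4 arrays, ku80 as circles and wild type as squares, open without and filled with bleomycin. The open circle is farthest right for most genes, as for AT2G43620 at 811 against 31.4 to 244, and AT3G47540 has the filled circle farthest right (817).

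Lipid-binding proteins were among the leading transcripts higher with bleomycin in ku80, next to AT4G17470 (48.7 and 849, 17.4-fold). AT4G22610, of the lipid transfer protein superfamily, was at 41.8 and 581 in ku80, 13.9-fold higher, and at 178 and 272 in wild type. Lipid transfer proteins did not move as a group: 3 of 27 measured members were at least 2-fold higher and 4 lower, with a median of 0.10 (5 higher and 4 lower on the spike-in scale). AT2G10940 and AT5G48490 were at the other end, at -1.97 and -2.01, and at -2.49 and -2.63 in wild type.

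Proteins with an MD-2-related lipid recognition domain were above 0 in 5 of 5 measured genes, and 3 were at least 2-fold higher. The adjacent genes AT5G23830 and AT5G23840 led them. AT5G23830 was at 135 and 756 in ku80 and at 262 and 251 in wild type. AT5G23840 was at the floor without the drug and at 203 with it, at least 7.24-fold higher, and at 52.0 and 81.0 in wild type. For both, untreated ku80 was the lowest of the 4 arrays and treated ku80 the highest. Of 2385 pairs of neighbouring genes with both measured, 4 had both at least 2-fold higher and 16 both at least 2-fold lower.

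Major latex protein-like genes, a family of small lipid-binding proteins, were at least 2-fold higher in 4 of 9 measured genes and lower in 0. AT1G14960 was at 30.4 and 179 in ku80 and at 234 and 220 in wild type. AT3G26460 was at 30.0 and 99.0 in ku80 and at 167 and 121 in wild type. AT4G14060 was at the floor and at 58.6 in ku80 and at 105 and 92.5 in wild type. These 3 were low on the untreated ku80 array alone, and with the drug they lay nearer to wild type but still below it. AT4G23680 differed, at 673 and 1484 in ku80 and at 1053 and 1832 in wild type.

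Genes of the ER body, an endoplasmic reticulum compartment of seedlings and roots that stores beta-glucosidases against herbivores, were above 0 in 6 of 6 members, with a median of 0.94. NAI1, the transcription factor that drives ER body formation, was at 29.7 and 60.0 in ku80 and at 71.8 and 63.3 in wild type. NAI2, a protein needed for the compartment, was at 143 and 343 in ku80 and at 230 and 216 in wild type. The lectin gene JAL34 was at 584 and 1211 in ku80 and at 722 and 692 in wild type. PYK10, the stored beta-glucosidase itself, was at 1935 and 2195, a difference of 0.18. The wild type median was -0.07. On the spike-in scale the medians were 1.21 in ku80 and -0.87 in wild type, and with the floor at 56 the ku80 median was 0.28. As with the latex protein-like genes, NAI1 and NAI2 were lowest on the untreated ku80 array.

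Single genes of other families had that order too. GSTU26, a tau class glutathione transferase, was at the floor and at 168 in ku80 and at 118 and 111 in wild type, whereas its neighbour GSTU25 was at 160 and 89.9 in ku80 and at the floor and at 134 in wild type. The other 9 measured glutathione transferases of the list were within 2-fold in ku80. HIS1-3, a linker histone gene induced by drought, was at 30.3 and 96.9 in ku80 and at 161 and 83.8 in wild type. GH3.17 and GH3.3, which join amino acids to auxin, were opposite to each other. GH3.17 was at 46.9 and 154 in ku80 and at 113 and 96.1 in wild type, and GH3.3 was at 584 and 165 in ku80 and at 79.3 and 266 in wild type.

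Some genes of mitochondria were higher in both genotypes. AT2G21640 (UPOX), a marker of oxidative stress, was at 70.5 and 428 in ku80, and at the floor and at 376 in wild type. SDH1-1, a subunit of succinate dehydrogenase, was at 459 and 950 in ku80 and at 276 and 509 in wild type. CYTC-2, a cytochrome c, was at 271 and 546 in ku80 and at 220 and 403 in wild type. Of 7 members of this mitochondrial list 3 were at least 2-fold higher and 0 lower, and the medians were 0.84 in ku80 and 0.88 in wild type (1.25 and 0.08 on the spike-in scale). Among mitochondrial-type AAA ATPases related to BCS1, AT1G43910 was at 235 and 780 and AT5G17760 at 160 and 517 in ku80. Of 7 measured members 7 were above 0 and 2 at least 2-fold higher, in ku80 and in wild type alike. Only 3 of the 7 lay above the floor on both ku80 arrays.

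ALPHA-VPE, a vacuolar processing enzyme, was at the floor and at 154 in ku80 and at the floor and at 128 in wild type, and the aspartic protease gene AT4G04460 was at 32.9 and 184 and at 35.6 and 157. Proteases were not higher as a group: of 36 measured aspartic protease genes 3 were at least 2-fold higher and 7 lower, of 7 subtilases 1 and 2, and of 15 serine carboxypeptidase-like genes 1 and 3. The aspartic protease counts turned with spike-in scaling to 8 higher and 3 lower. The senescence genes SAG101 and SAG29 were higher by 0.90 and 0.94 in ku80 and by 2.34 and 1.69 in wild type. The senescence list's medians over 5 genes were 0.94 and 2.14, but on the spike-in scale both were at 1.34. With the scaling used here SAG101 and SAG29 started higher in untreated ku80, at 73.2 against 51.6 and at 135 against 49.7 in untreated wild type. On the spike-in scale SAG101 was instead lower in untreated ku80 than in untreated wild type. Of the 5 senescence genes, 1 was at least 2-fold higher in untreated ku80 than in untreated wild type, and 0 on the spike-in scale. Of 10 measured autophagy genes 0 passed 2-fold in ku80, with a median of 0.20, while 3 were at least 2-fold higher in wild type with a median of 0.57. On the spike-in scale that order turned, with medians of 0.61 in ku80 and -0.23 in wild type, 1 gene at least 2-fold higher in ku80 and 0 in wild type. ATG8A (listed as APG8A) was at 324 and 447 in ku80 and at 234 and 622 in wild type.

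**Figure D4:**
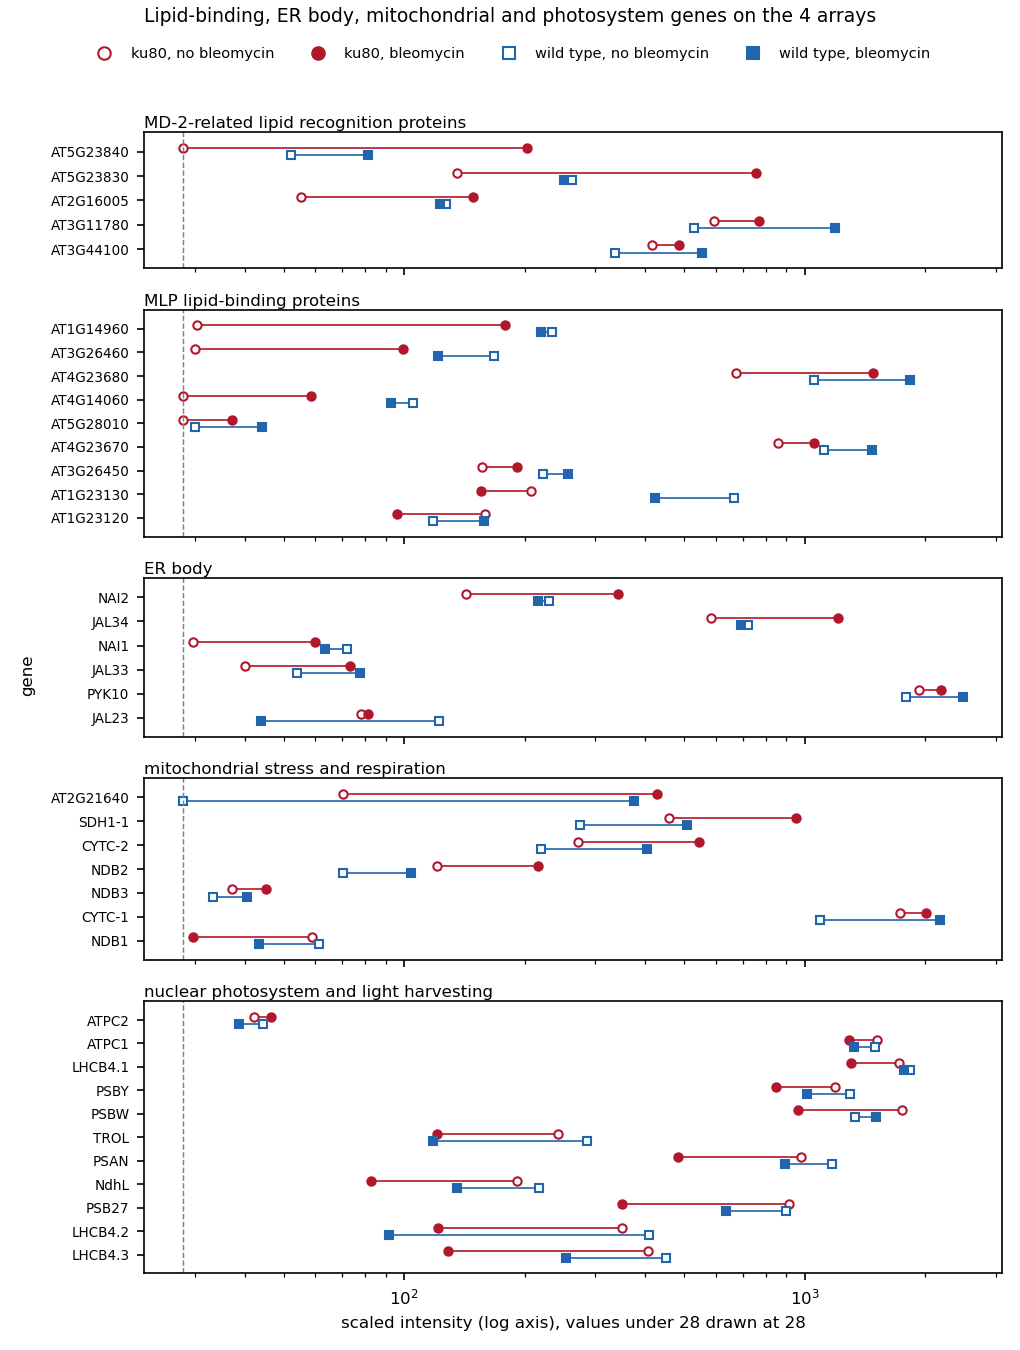
Scaled intensity (log axis) of lipid-binding, ER body, mitochondrial and nuclear photosystem genes on the 4 arrays, ku80 as circles and wild type as squares, open without and filled with bleomycin. Open circles are farthest left for AT5G23830 (135), AT1G14960 (30.4) and NAI2 (143), and in the photosystem panel filled circles lie left of open ones in 10 of 11 genes.

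Of the classical DNA damage and repair genes only 5 were named and measured. MND1, a partner in homologous recombination, was at the floor without the drug and at 64.5 with it, at least 2.30-fold higher, and at the floor and at 46.3 in wild type. LIG4, the ligase that acts after Ku in end joining, was at 48.2 and 54.7 in ku80 and at 36.7 and 47.2 in wild type. The other 3 lay between 0.06 and 0.25. The list's median was 0.18 in ku80 and 0.00 in wild type, and 0.59 and -0.80 on the spike-in scale.

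Several cell division genes were lower in both genotypes. SIM, a cyclin-dependent kinase inhibitor that promotes a switch from division to endoreduplication, was at 90.1 and 265 in ku80 and at 102 and 192 in wild type. Of 4 measured inhibitor genes of this kind, 2 were above 0 and 2 below in ku80. At least 2-fold higher were 1 in ku80 (2 on the spike-in scale) and 0 in wild type. The list's medians were 0.26 in both genotypes (0.59 in ku80 and -0.49 in wild type on the spike-in scale). The mitotic kinase gene AUR1 was at 74.1 and 29.7 in ku80 and at 83.4 and 39.3 in wild type. 3xHMG-box2, a protein that binds mitotic chromosomes, was at 69.0 without the drug and at the floor with it, and at 78.7 and at the floor in wild type. HTB2, an H2B histone gene, was at 61.3 and at the floor, and at 69.7 and at the floor in wild type. Of 7 G2 and M phase genes 3 were at least 2-fold lower in ku80 (1 on the spike-in scale) and 4 in wild type, with medians of -0.88 and -1.09 (-0.47 and -1.89 on the spike-in scale). The 4 measured S phase genes lay between -0.36 and 0.39.

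Some genes of cell wall growth were lower with the drug. EXPA8, an expansin, was at 178 and 29.3 in ku80 and at 298 and 31.6 in wild type. Of 12 expansins 3 were at least 2-fold lower in ku80 and 0 higher, and 5 were lower in wild type, while EXLA1 was at 564 and 1007 in ku80. With spike-in scaling 1 of the ku80 expansins was lower and 1 higher. Of 6 xyloglucan endotransglucosylases, which cut and rejoin wall polymers, 0 passed 2-fold in ku80. Of 20 cellulose synthase-like and trichome birefringence-like genes, which make or acetylate wall polymers, 4 were at least 2-fold lower (2 on the spike-in scale), led by TBL45 at 320 and 51.5. The list's median of -0.22 turned to 0.15 on the spike-in scale. GDSL lipases, some of which build cuticle, had 9 of 36 at least 2-fold lower and 3 higher, with a median of -0.35 that turned to 0.03 on the spike-in scale, where 4 were lower. AT5G33370 was at 149 and 29.6 and AT1G20120 at the floor and at 136. STOMAGEN, a peptide that promotes stomata, was at 118 and 34.1 in ku80 and at 117 and at the floor in wild type.

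Photosynthesis genes encoded in the nucleus were mostly lower. Of 11 measured photosystem and light harvesting genes 6 were at least 2-fold lower (2 on the spike-in scale) and 10 were below 0, with a median of -1.01 against -0.39 in wild type. On the spike-in scale that order turned, at -0.60 against -1.19. LHCB4.3, of the photosystem II antenna, was at 406 and 129 in ku80 and at 449 and 253 in wild type. PSB27, a photosystem II assembly factor, was at 913 and 350 in ku80 and at 896 and 636 in wild type. LHCB4.2 was lower still in treated wild type, at 351 and 122 in ku80 and 408 and 91.4 in wild type. Chlorophyll synthesis genes were below 0 in 10 of 10, with medians of -0.75 in ku80 and -0.73 in wild type (-0.35 and -1.53 on the spike-in scale), and 4 were at least 2-fold lower (1 on the spike-in scale). PORB, which reduces protochlorophyllide in the light, was at 1024 and 406 in ku80 and at 965 and 412 in wild type. AMY1, an alpha-amylase, was at 66.6 and 269, and APL3, of starch synthesis, at 35.6 and 80.2, both higher also in wild type.

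Of 68 measured genes of the plastid genome, 63 were below 0 and 11 were at least 2-fold lower (3 on the spike-in scale). The median was -0.58 (-0.18 on the spike-in scale). In wild type 53 were below 0 and 12 at least 2-fold lower, with a median of -0.41. On the spike-in scale 44 were lower in wild type, with a median of -1.20. The ku80 difference was below the wild type one in 41 of the 68 and above it in 27. With spike-in scaling it was below in 2. psbD and psbC, adjacent genes of the photosystem II core, were at 2022 and 481 and at 2978 and 1061 in ku80, and at 738 and 490 and at 1361 and 1648 in wild type. rpoC2, a subunit of the plastid RNA polymerase, was at 907 and 311 in ku80 and at 418 and 224 in wild type. For all 3 the untreated ku80 array was the highest. The drop was larger in wild type for ndhE, at 572 and 281 in ku80 and at 556 and 132 in wild type. The ATP synthase genes had a median of -0.25 (0.15 on the spike-in scale), and psbK was higher with the drug, at 427 and 835. Because the cDNA primer was oligo-dT and most plastid RNA is not stably polyadenylated, these levels rest on a minor share of it.

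**Figure D5:**
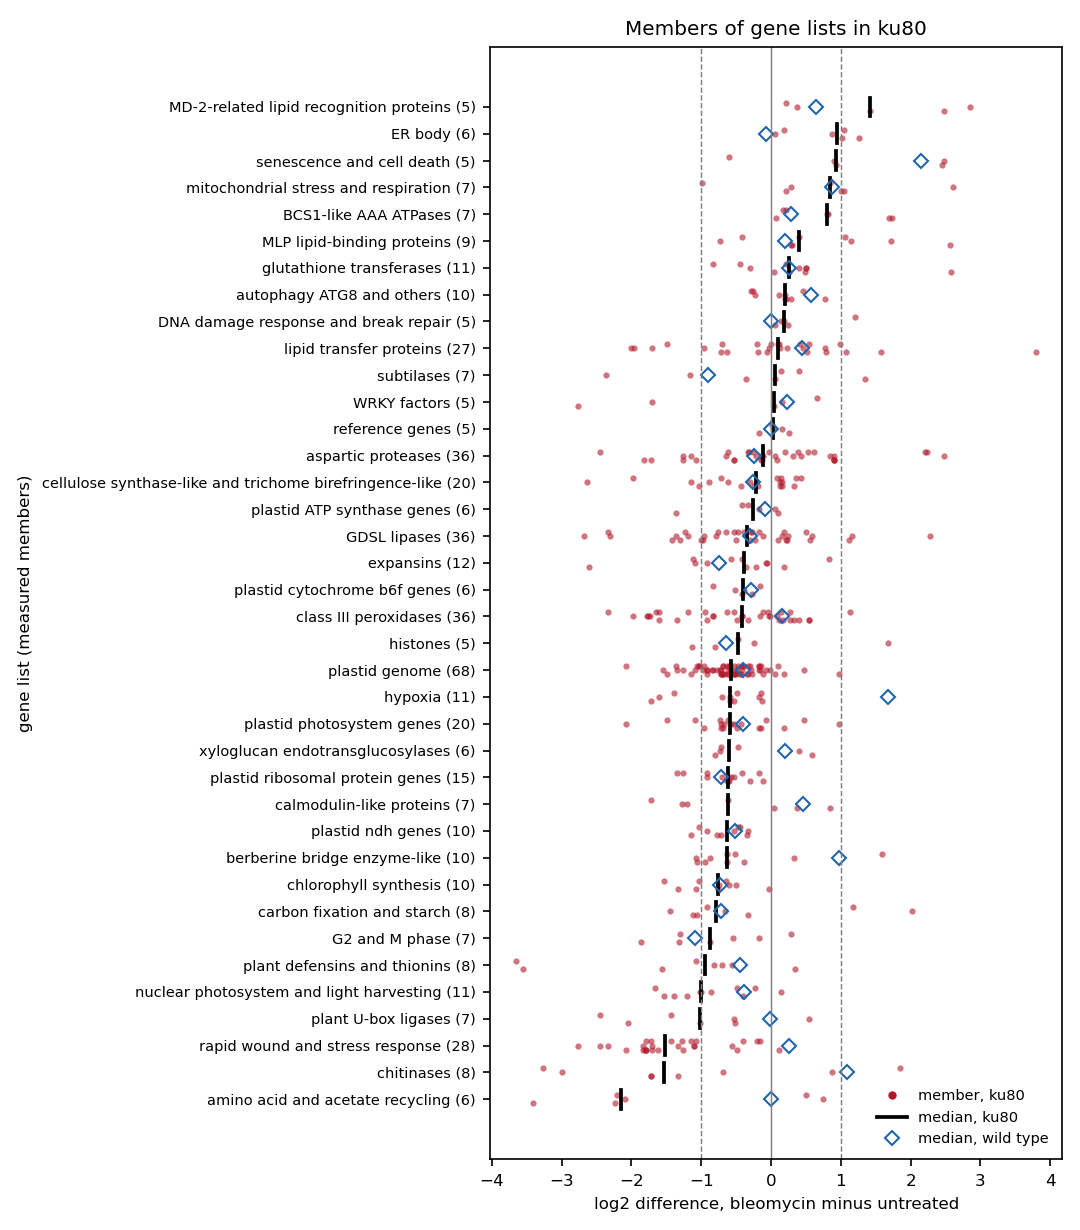
Log2 difference between bleomycin and untreated ku80 for each measured member of most gene lists with at least 5 measured members (number in brackets). The ku80 median is a black bar, the wild type median a blue diamond, and dashed lines mark 2-fold. Not drawn were the glycosyltransferase, beta-glucosidase, cytochrome P450, serine carboxypeptidase-like, abscisic acid and GH3 lists. Their ku80 medians lay between -0.14 and 0.19. The recycling, chitinase and early wound lists lie lowest (medians -2.15, -1.53 and -1.52) and the MD-2-related list highest (1.42), with wild type medians near or above 0 for all 4.

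Set beside wild type over the named genes, 82 of the 187 genes at least 2-fold higher in ku80 were so in wild type too (43.9%), and 79 were higher by less than 2-fold. Those 82 were 17.5% of the 469 genes (6.05%) at least 2-fold higher in wild type. Of the 418 at least 2-fold lower in ku80, 172 (41.1%) were at least 2-fold lower in wild type, which was 30.3% of the 568 (7.32%) lower there, and 157 were lower by less than 2-fold. Opposite by at least 2-fold in wild type were 1 of the 187 and 23 of the 418. These counts include genes at the floor on some array. The genotypes share no array in this comparison, and no difference between them was tested. It also depends on the scale: with spike-in scaling, 92 of the named genes were at least 2-fold higher and 2618 lower in wild type.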

How the data were processed

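ATH1 array data from 4 pools of whole plants were used, 1 per group. The deposited values are linear intensities, 1 per probe set, and their mean after trimming 2% from each end was 100.01 on each array; the summarising software was not given in the sources used here. The files hold no depth, and 1 array a group limits the precision. After 64 controls were set aside, each array was divided by a size factor (0.977 to 1.04): among the brighter 50% of probe sets, the median of its values over the probe set's geometric mean. Values were raised to a floor of 28 and put on the log2 scale (Python 3.11.15, pandas 2.3.3, numpy 2.4.6). The calculation was tested on simulated data. No test was possible.

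Names came from the platform table (13513 probe sets with 1 gene, 503 with several, 8730 unnamed here), updated through a RefSeq gene table of TAIR10.1, which matched 13436. Of the measured probe sets 54.0% had 1 gene. Genes were named as the 25 largest differences per direction above the floor on both ku80 arrays, the 15 largest bounds, the 10 per direction farthest from wild type, and members of 53 gene lists, not all printed. Members and lists were chosen with earlier results of these data known, and most lists were extended or put together after the values were seen, so list counts are descriptions. The tables give no descriptions for loci without a symbol; families and roles are general background. The mitochondrial genome list and planned promoter motifs were not analysed here. Alternatives were other scalings, floors, a pseudocount, a 3-fold threshold and probe set rules.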

Additional observations from a re-analysis of the deposited data

Results flagged for a closer look

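16 named genes above the floor on all 4 arrays differed by at least 2-fold in opposite directions with bleomycin in ku80 and in wild type. The difference between the responses was not tested. The values here are the ku80 log2 difference minus the wild type one. The value for AT5G19100, an aspartic protease gene at 59.6 and 282 in ku80 and at 141 and 60.3 in wild type, was 3.47, and the other 15 were lower in ku80. Among defence genes, AT2G43620 was at -5.95, AT4G01700 at -2.80, AT4G33720 at -3.63, and the peroxidase genes AT5G64100 and AT4G08780 at -3.35 and -2.90. AT4G33720, of the pathogenesis-related protein family, was at 651 and 224 in ku80 and at 44.4 and 190 in wild type. Among early wound genes, AT3G01830 was at -2.97 and AT1G58420 at -3.11. GH3.3 was at -3.57, the low oxygen gene AT1G19530 at -4.07 and the lipid transfer gene AT5G55450 at -3.05. AT3G13610 was at -3.06, a gene of coumarin synthesis at 526 and 190 in ku80 and at 118 and 357 in wild type. AT5G05300, AT3G47380, AT4G32870 and AT4G27450 were at -3.09, -2.56, -2.57 and -2.22. On the spike-in scale 4 of the 16 were past 2-fold both ways. All 16 kept opposite signs there, but this was fixed by their selection. They were chosen past 2-fold both ways, and that scale moves the differences of either genotype by less than 2-fold.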

How the results depend on the processing

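No paired analysis was possible because each group held 1 array, and for the same reason no array could be left out. Of the counts past 2-fold (382 higher, 861 lower), log2(value + 28) without a floor gave 230 and 537, a 3-fold threshold 118 and 234, and the spike-in scale, chosen after seeing the data, 1179 and 353. Deposited values without further scaling, quantile normalization, floors at 56 and 14, and probe sets above the floor on both ku80 arrays kept both counts within 1.5 times. All 91 named genes kept their sign under these scalings and the pseudocount, but this was fixed by their selection. They were chosen past 2-fold, the scalings moved them by at most 0.41 on the log2 scale, and a pseudocount cannot turn a sign. Still past 2-fold were 88 with log2(value + 28) and 90 on the spike-in scale. Of 47 list medians, 10 changed sign on the spike-in scale, 1 with each of the floors at 56 and 14, and 2 over members above the floor on both arrays. Differences of dim genes are limited by the floor.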
